A study of Danio rerio with 13 samples.

Results

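The finTRIM genes (ftr) and the bloodthirsty-related genes (btr) are 2 families of tripartite motif (TRIM) genes that are greatly expanded in fish. All genes of the count table whose zebrafish symbol is ftr or btr followed by a digit were taken, in any case of letters, which gave 91 of 32105 genes, 70 of them finTRIM and 21 bloodthirsty. They were followed across 12 zebrafish leukemias.

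TRIM proteins carry a RING domain, B-boxes and a coiled coil, often followed by a B30.2 domain, and many act as ubiquitin ligases in antiviral and inflammatory signalling. finTRIM genes were first found in fish as transcripts induced in leukocytes by viruses, and the bloodthirsty gene was named for its need in red blood cell formation in zebrafish. Type I interferon signalling runs through receptors and JAK kinases to transcription factors that switch on antiviral genes.

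The leukemias arose in fish carrying a pair of transgenes, rag2:hMYC, which drives human MYC from the promoter of a recombinase gene of lymphocyte precursors, and lck:eGFP, which places green fluorescent protein under the promoter of lck, a kinase gene of T cells. GFP-positive cells were sorted from the whole body, and polyadenylated RNA was sequenced from 100 ng of total RNA with a stranded kit. Of 13 libraries, 6 have the letter d in their description (hMYC-9 to hMYC-14) and 7 the letter c (hMYC-1 to hMYC-6 and hMYC-8). The labels do not say what the letter means, so it may mark a batch, and they give neither a B or T type nor an age, and there is no untreated or healthy group. hMYC-1 was left out because its count was equal to or above the sum of hMYC-10 to hMYC-14 for all but 1 member, leaving 6 libraries of letter d and 6 of letter c. Each is taken as 1 sample, and the p-values below measure only the spread between these samples.

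The 12 libraries held between 8166453 counts (hMYC-2) and 12297780 counts (hMYC-8). As a check of the cells, the lymphoid list (RAG1, RAG2, lck, ptprc and ikzf1) had a mean log2 level (log2 CPM, where CPM is the count scaled to a common library size) of 9.33 to 9.82 in letter d and 7.19 to 9.81 in letter c. In letter d the mean log2 levels of the marker lists of other cells varied more, with an SD of 0.52 (muscle) to 1.76 (exocrine pancreas) against 0.19 for the lymphoid list. The muscle genes had counts only in hMYC-12 among these libraries, at most 5 for a gene. In letter c only the exocrine pancreas list varied more than the lymphoid list, with an SD of 2.10 against 1.04. The SD in letter c was 0.87 for the epithelial, 0.47 for the myeloid, 0.18 for the red cell and 0.09 for the muscle genes. The lymphoid list itself was uneven in letter c. RAG1 had 99.9 to 871 CPM in hMYC-3, hMYC-4 and hMYC-5 and 7487 to 9784 CPM in hMYC-2, hMYC-6 and hMYC-8. The comparison in letter c therefore does not show that other cells varied little. The summed level of 5 epithelial genes ran from 3.29 to 73.6 CPM in letter d and from 7.97 to 43.0 CPM in letter c. The 4 matched red cell genes summed to 2.56 to 150 CPM in letter d and to 16.5 to 39.5 CPM in letter c, with 1 of them at 0 in all libraries. The 6 matched myeloid genes summed to 472 to 868 CPM in letter d and 303 to 429 CPM in letter c, and the 3 matched exocrine pancreas genes to 0.548 to 22.4 CPM in letter d and 0.607 to 59.0 CPM in letter c. The 2 matched muscle genes stayed at or below 0.608 CPM in letter d and 0.170 CPM in letter c. In RNA from sorted cells in bulk, fewer cells of a type and less RNA per cell cannot be told apart.

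Between 32 and 57 of the 91 members were detected, at 10 counts or more, in each leukemia. The libraries of letter d held 42 members in hMYC-9, 45 in hMYC-10, 32 in hMYC-11, 57 in hMYC-12, 40 in hMYC-13 and 53 in hMYC-14. Those of letter c held 45 in hMYC-2, 55 in hMYC-3, 57 in hMYC-4, 42 in hMYC-5, 47 in hMYC-6 and 44 in hMYC-8, so the letters overlap and the median over all 12 is 45. As a share, 35.2% to 62.6% of the members were detected, against 39.7% to 46.3% of all genes in the table. Most of the variation was among finTRIM genes, of which 25 (hMYC-11) to 49 (hMYC-12) were detected, against 6 to 10 bloodthirsty genes.

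**Figure D1:**
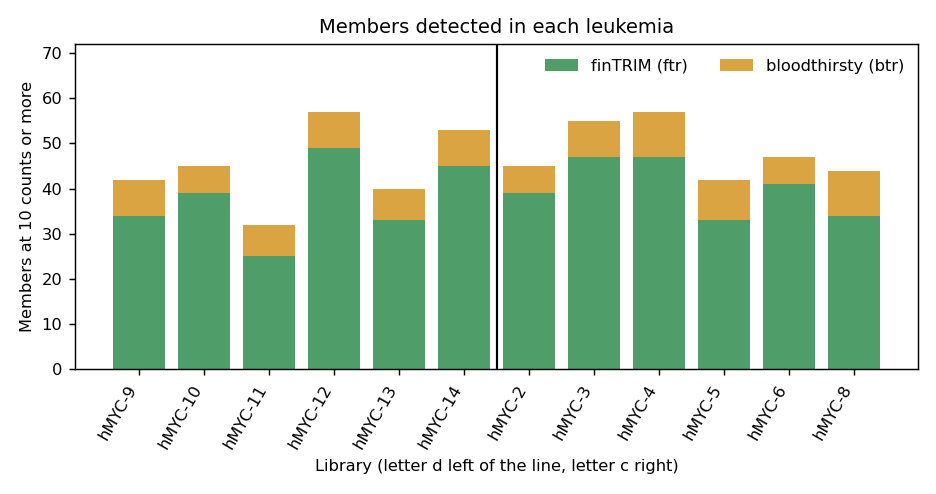
Number of family members with 10 counts or more in each leukemia (vertical axis), with finTRIM and bloodthirsty genes stacked, and letter d libraries on the left and letter c libraries on the right. hMYC-11 has the fewest, 32, and hMYC-12 and hMYC-4 the most, 57 each.

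A core of 24 members, 20 finTRIM and 4 bloodthirsty genes, had 10 counts or more in all 12 leukemias. The 4 bloodthirsty genes were btr09, btr18, btr26 and btr29. Another 45 members passed 10 counts in 1 to 11 leukemias and 22 in none (13 finTRIM and 9 bloodthirsty). Of these, 15 had at most 3 counts in every library, and ftr55 had 0 in all 12, so each library's level of ftr55 lay under the limit of 3 counts that a count of 0 allows. Of all genes in the table, 33.1% passed 10 counts in all 12 libraries and 43.4% in none, so the family's 24 and 22 of 91 are both below those shares.

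The summed level of the members ranged from 348 CPM (hMYC-13) to 646 CPM (hMYC-12) in letter d and from 299 CPM (hMYC-5) to 553 CPM (hMYC-2) in letter c. finTRIM genes made up 79.6% of it, and the 8 members with the highest mean CPM made up 47.7%. These 8 are btr29 and the finTRIM genes ftr67, ftr78, ftr50.2, ftr79, ftr22, ftr38 and ftr24. CPM is not divided by gene length, so their order is not a ranking of transcript number.

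btr29 had 36.1 CPM in hMYC-9, 63.5 in hMYC-10, 50.02 in hMYC-11, 75.1 in hMYC-12, 49.1 in hMYC-13 and 69.7 in hMYC-14. In letter c it had 60.1 CPM in hMYC-2, 30.5 in hMYC-3, 32.6 in hMYC-4, 17.1 in hMYC-5, 45.3 in hMYC-6 and 44.6 in hMYC-8. The highest library was of letter d and the lowest of letter c, with overlap between the letters. Its log2 fold change of letter d over letter c was 0.51 ± 0.30 (SE; edgeR quasi-likelihood test with Benjamini-Hochberg adjustment, adjusted p = 0.352), which did not pass the test.

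ftr67 averaged 37.3 ± 15.4 CPM in letter d and 42.8 ± 10.2 CPM in letter c (SD, n = 6 each). ftr78 averaged 29.6 ± 8.76 CPM in letter d and 29.8 ± 11.4 CPM in letter c. Every library had between 16.6 and 65.5 CPM of each. ftr24 was among the steadiest of them, at 15.2 to 22.6 CPM in letter d and 11.4 to 21.6 CPM in letter c, with an SD of 0.36 on the log2 scale over the 12 libraries. btr18 was similarly even, at 5.48 to 13.3 CPM in letter d and 7.11 to 13.98 CPM in letter c. None of ftr67, ftr78, ftr24 or btr18 passed the test between the letters.

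Of the other finTRIM genes in this group, ftr50.2 averaged 28.6 ± 9.33 CPM in letter d and 23.3 ± 10.1 CPM in letter c (SD, n = 6 each). ftr22 averaged 24.7 ± 9.42 CPM in letter d and 18.2 ± 7.63 CPM in letter c. ftr38 averaged 22.8 ± 4.14 CPM in letter d and 16.5 ± 7.43 CPM in letter c. All 3 had a higher mean in letter d with overlapping letters, and none passed, with an edgeR adjusted p of 0.735 for ftr50.2, 0.572 for ftr22 and 0.5001 for ftr38.

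ftr79 behaved differently, since it was even in all leukemias but one. It had 24.6 to 31.7 CPM in the 6 libraries of letter d, and 32.1, 31.8, 19.4, 15.9 and 33.7 CPM in hMYC-2, hMYC-3, hMYC-4, hMYC-5 and hMYC-6. In hMYC-8 it had 1.79 CPM, from 22 counts. ftr70 was low in 2 leukemias of letter d, with 0.548 CPM in hMYC-10 and 0.845 CPM in hMYC-13, against 8.14 to 28.4 CPM in the other libraries.

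At a mean count of at least 10, finTRIM genes spread more between leukemias than genes at large, and bloodthirsty genes about as much. Over the 52 members with a mean count of at least 10, the median SD of log2 CPM was 1.001, against 0.67 for 38 other TRIM genes and 0.60 for 14817 genes with the same minimum. The SD was above 1 for 26 of these 52 members, where 30.6% of all genes at this minimum were above 1. It was above 1 for 24 of 44 finTRIM genes, with a median of 1.12, and for 2 of 8 bloodthirsty genes, with a median of 0.61. A stricter filter that needs a minimum level in every library, the main setting for this measure, kept only 23 members. It leaves out any member below that level in even 1 library. There the median SD was 0.60, against 0.54 for 21 other TRIM genes and 0.47 for 10653 genes. As a scaled median absolute deviation it was 0.53, against 0.43 for these other TRIM genes and 0.42 for all genes. These are descriptions with no test, and the sets were not matched on their counts, which bear on the counting error within an SD.

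**Figure D2:**
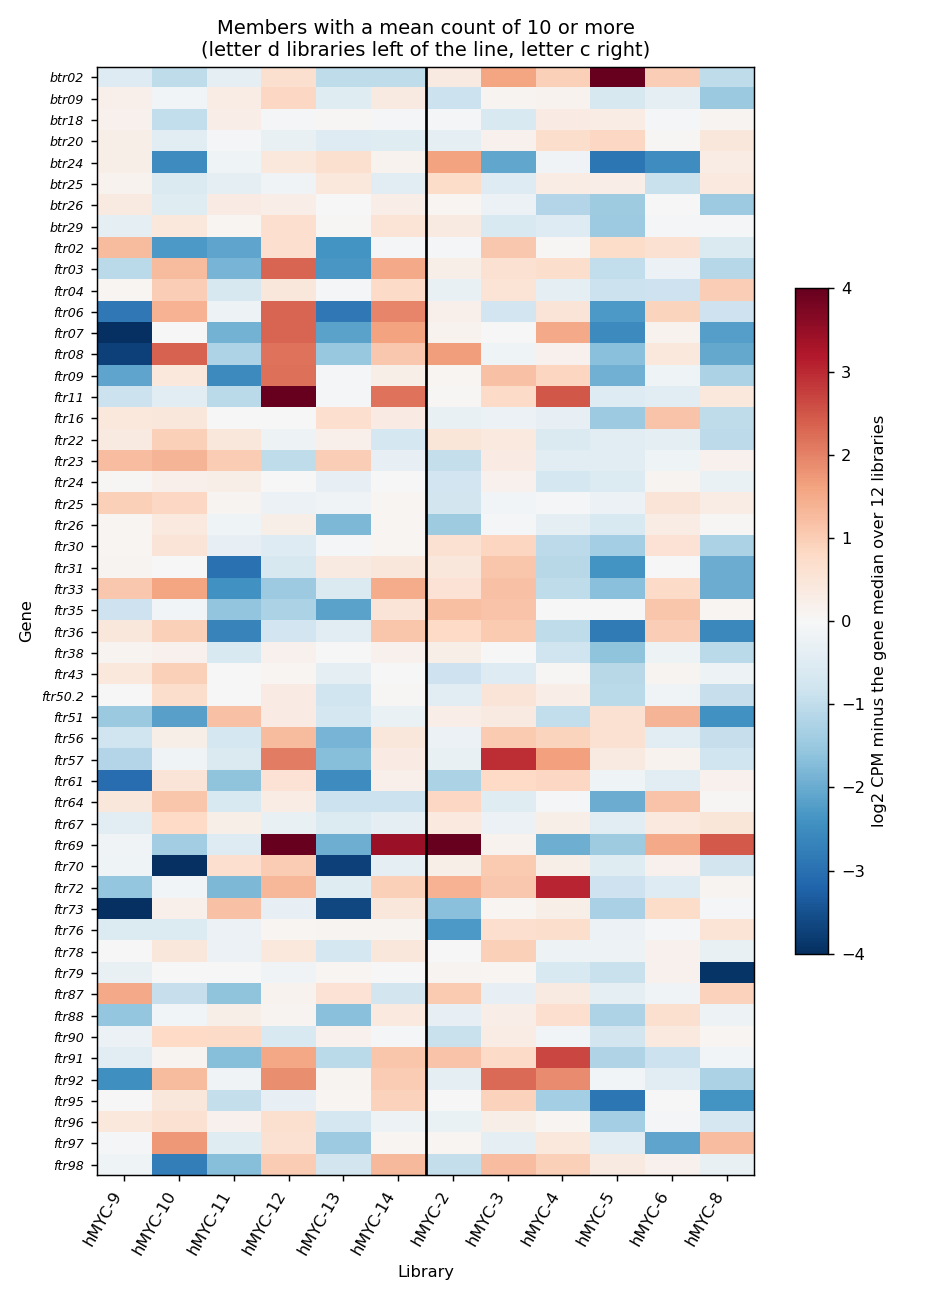
log2 CPM of the 52 members with a mean count of at least 10 (rows) in the 12 leukemias (columns, letter d left and letter c right), minus each gene's median over the 12, on a colour scale that ends at -4 and 4. Libraries of the same letter differ from one another, with hMYC-12 high and hMYC-5 and hMYC-13 low for many members.

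Among the 23 members that passed the stricter filter, the 8 with the largest SD were ftr79, ftr91, ftr98, ftr56, ftr64, ftr23, ftr88 and ftr26. ftr98 had 1.19 to 22.8 CPM with a median of 6.81 in letter d, and 4.70 to 22.1 CPM with a median of 11.1 in letter c. ftr64 had 2.45 to 10.04 CPM with a median of 4.29 in letter d, and 1.02 to 10.3 CPM with a median of 4.57 in letter c. ftr88 had 3.13 to 13.8 CPM with a median of 10.5 in letter d, and 4.33 to 16.6 CPM with a median of 10.8 in letter c. For each of these the letters overlap across most of their range. ftr56 had a median of 4.04 CPM in letter d and 5.37 CPM in letter c, and ftr26 a median of 10.1 CPM in letter d and 8.29 CPM in letter c. None of ftr98, ftr64, ftr88, ftr56 or ftr26 passed the test between the letters.

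Libraries were uneven in how many members peaked in them. Of the 52 members with a mean count of at least 10, hMYC-10 was the highest library for 10 (19.2%, against 11.1% of all genes) and hMYC-12 for 9 (17.3%, against 4.1% of all genes). hMYC-13 was the highest for 0 members (13.6% of all genes). hMYC-5 was the lowest library for 12 members (23.1%, against 9.6% of all genes) and hMYC-13 for 10 (19.2%, against 9.6%). hMYC-12 also had the highest summed level of the epithelial genes, 73.6 CPM, whose part in this was not tested.

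Some members next to each other in the genome peaked in the same library, and others did not. A RefSeq position (assembly GRCz12tu, used only for the order of genes) was found for 71 of the 91 members (78.0%), too few for a comparison over the whole family, so only single runs with at most 5 other protein-coding genes between members are described. The run of ftr02, ftr03, ftr06 and ftr07 summed to 38.9 CPM in hMYC-12 and 24.1 CPM in hMYC-14, against 1.35 to 11.9 CPM in the other libraries of letter d and 4.39 to 17.8 CPM in letter c. 3 of its 4 members peaked in hMYC-12. The pair ftr11 and ftr12 summed to 14.9 CPM in hMYC-12 and to between 0.107 and 3.79 CPM elsewhere. The pair ftr82 and ftr83, the second of which is known in zebrafish to trigger an interferon response, peaked in hMYC-12 as well, but at only 2.84 CPM. In other runs the peaks were split, between hMYC-9 and hMYC-10 for ftr87 and ftr67, and between hMYC-2 and hMYC-3 for ftr70 and ftr69.

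The run of 9 finTRIM genes from ftr38 to ftr95 had another pattern. It summed to 42.5 CPM in hMYC-9, 49.9 in hMYC-10, 18.2 in hMYC-11, 32.3 in hMYC-12, 32.6 in hMYC-13 and 50.8 in hMYC-14. In letter c it summed to 48.0 CPM in hMYC-2, 50.8 in hMYC-3, 19.4 in hMYC-4, 10.5 in hMYC-5, 40.5 in hMYC-6 and 14.2 in hMYC-8. Low values thus occurred under both letters. The run of ftr76, ftr88, ftr73, ftr72 and ftr91 peaked in hMYC-4, at 74.9 CPM, with 4 of its 5 members highest there. The labels name featureCounts but not how reads that fit several copies, or strand, were treated. Counts of near-identical members, in these runs or elsewhere, may therefore be split, shared or lost. This limit also holds for members with few or no counts.

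4 members were on in some leukemias and off in others, meaning 50 counts or more in at least 2 libraries and 3 counts or fewer in at least 2. They are ftr69, ftr73, ftr06 and ftr36, out of 38 members with 50 counts or more in at least 2 libraries. Of all such genes in the table, 8.32% met the same rule, which is 3.32% of the whole table.

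ftr69 had 6, 1, 3, 175, 0 and 83 counts in hMYC-9 to hMYC-14, and 531, 7, 0, 1, 20 and 47 counts in hMYC-2, hMYC-3, hMYC-4, hMYC-5, hMYC-6 and hMYC-8. ftr73 had 1, 67, 112, 41, 3 and 77 counts in hMYC-9 to hMYC-14, and 10, 65, 69, 24, 93 and 61 counts in the letter c libraries in the same order. Both letters held high libraries for both genes, and for ftr73 the low ones were hMYC-9 and hMYC-13. ftr06 had 0, 36, 9, 65, 0 and 53 counts in letter d and 9, 7, 19, 1, 24 and 7 in letter c. ftr36 had 41, 52, 2, 13, 20 and 56 counts in letter d and 28, 58, 12, 2, 51 and 3 in letter c. ftr06 passed 50 counts only in hMYC-12 and hMYC-14, and ftr36 under both letters.

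**Figure D3:**
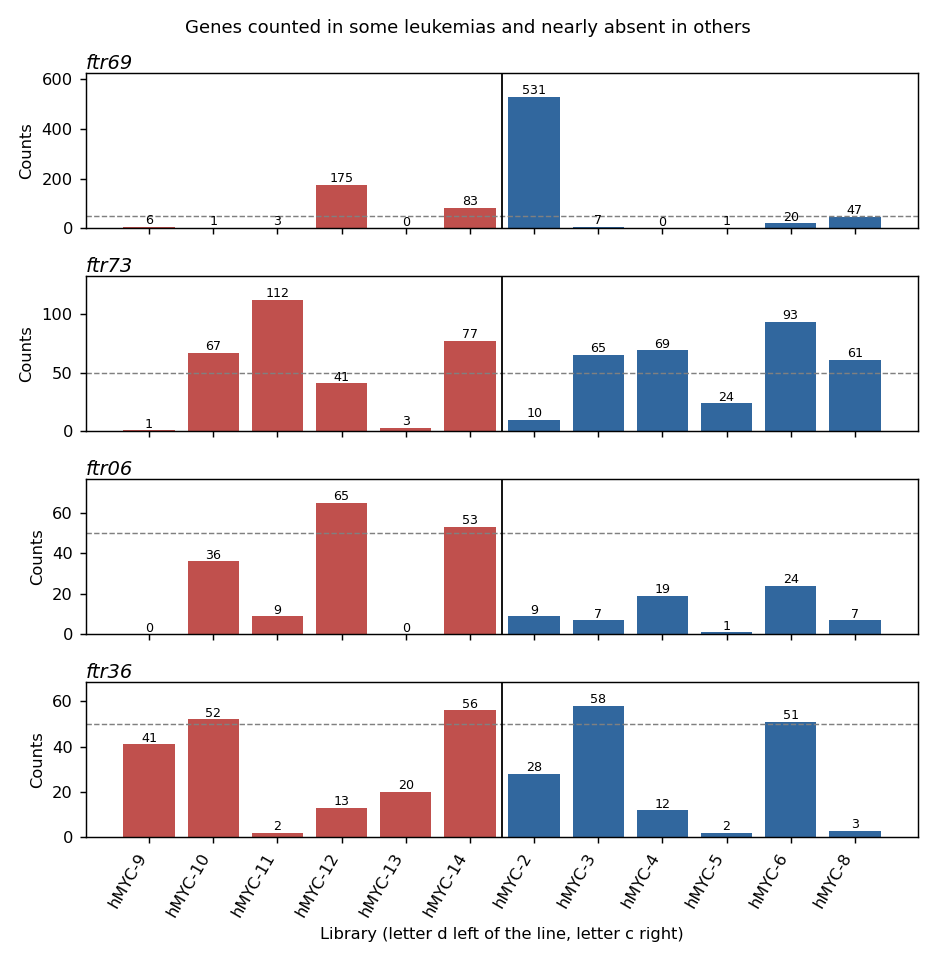
Counts of ftr69, ftr73, ftr06 and ftr36 in each leukemia, letter d left and letter c right, with a dashed line at 50 counts. ftr69 reaches 531 counts in hMYC-2 and 0 in hMYC-13 and hMYC-4.

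Some members were high in a single leukemia. btr02 had 237 counts in hMYC-5 and at most 11 in any other library.

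btr22 (ENSDARG00000100539) was lower in letter d, at counts so low that its call depended on the filter. It had 1, 3, 4, 1, 3 and 3 counts in hMYC-9 to hMYC-14, and 9, 12, 21, 14, 14 and 14 counts in the letter c libraries. This is 0.0796 to 0.429 CPM in letter d and 1.04 to 1.89 CPM in letter c, so the letters do not overlap. The log2 fold change was -2.52 ± 0.41 (SE; edgeR, adjusted p = 0.0337), but it entered the tested set only through letter c, where it is high, and with no filter the edgeR adjusted p was 0.139. Summed over libraries it had 15 counts in letter d and 84 in letter c, a ratio of 0.181 (95% interval 0.097 to 0.316, which covers counting error only).

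The call rests on few counts and on single libraries. It was lost when any 1 of 9 libraries was left out and held without hMYC-6, hMYC-8 or hMYC-12, while the log2 fold change stayed between -2.73 and -2.32. With the B score described below as a covariate the adjusted p was 0.101. If the letter marks a batch, a difference between these tumours and one between batches cannot be told apart.

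Of 50 members with enough counts for this test, 1 passed at an adjusted p of 0.05. Of all 13663 genes tested, 0.344% passed, 0.234% as lower in letter d and 0.110% as higher, and a single call among 50 is no result about the family as a whole. DESeq2 also called btr22 alone among the members, where it called 8.48% of all genes. 4 of the 50 members had an unadjusted p under 0.05, namely btr22, ftr35, btr20 and ftr23, against 20.4% of all genes. The median log2 fold change of the members was 0.10. Letters that do not overlap were seen in btr22 alone among the 50, and in 2.01% of all genes, 0.944% with letter d lower and 1.07% with letter d higher.

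ftr35 had 0.0845 to 1.51 CPM with a median of 0.391 in letter d, and 0.992 to 2.58 CPM with a median of 1.71 in letter c (log2 fold change -1.62 ± 0.60 SE, edgeR adjusted p = 0.174). btr20 had 1.099 to 1.99 CPM in letter d and 1.21 to 3.05 CPM in letter c (-0.71 ± 0.29, edgeR adjusted p = 0.197). ftr23 had 2.33 to 12.8 CPM in letter d and 2.42 to 6.24 CPM in letter c (0.90 ± 0.39, edgeR adjusted p = 0.226). btr26 had 9.40 to 17.0 CPM in letter d and 4.64 to 13.8 CPM in letter c (0.66 ± 0.33, edgeR adjusted p = 0.284). None passed, and in each the letters overlap. Among 34 other TRIM genes 0 passed in edgeR, with 3 at an unadjusted p under 0.05, while DESeq2 called TRIM33 and TRIM71, both lower in letter d. Among 25 interferon and antiviral genes 0 passed in either tool, with 4 at an unadjusted p under 0.05 in edgeR.

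**Figure D4:**
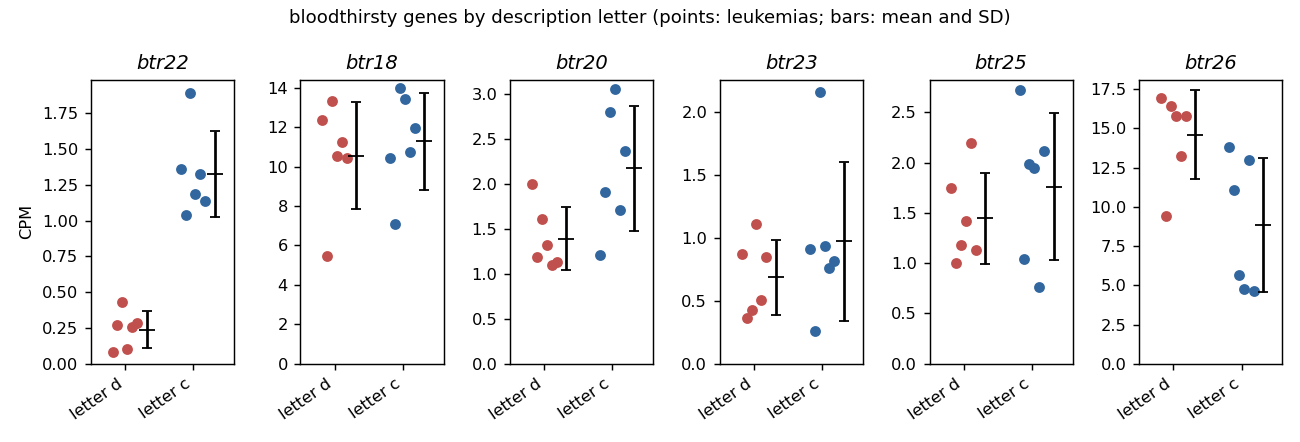
CPM of btr22, btr18, btr20, btr23, btr25 and btr26 in the 6 libraries of letter d (left) and the 6 of letter c (right), with each point a leukemia and bars for the mean and SD. btr22 lies at or below 0.429 CPM in letter d and at or above 1.04 CPM in letter c, while btr18 overlaps between the letters.

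The labels give no B or T type, so each library was placed on a B score, the mean log2 CPM of 13 B cell genes such as cd79a and pax5. It ran from -0.34 (hMYC-11) to 5.10 (hMYC-12) in letter d and from 1.78 (hMYC-2) to 6.46 (hMYC-3) in letter c. A slope is the change in a gene's log2 level per unit of the score. No member passed the edgeR test of the slope out of 23 that met a minimum level in every library, where 6.73% of 10653 genes passed. 4 of the 23 members (17.4%) had an unadjusted p under 0.05, against 22.6% of all genes.

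The 4 were ftr56, ftr98 and ftr91, with higher values at higher B scores, and ftr23, with lower values. The slope was 0.28 ± 0.09 for ftr56 (SE, edgeR adjusted p = 0.0724) and 0.35 ± 0.11 for ftr98 (edgeR adjusted p = 0.0810). It was 0.36 ± 0.14 for ftr91 (edgeR adjusted p = 0.136) and -0.18 ± 0.08 for ftr23 (edgeR adjusted p = 0.185). Without hMYC-4 the slope of ftr91 was 0.19 (edgeR adjusted p = 0.596). Within the letters the slope of ftr56 was 0.31 ± 0.17 in letter d and 0.35 ± 0.08 in letter c (SE, edgeR adjusted p = 0.661 and 0.0571). That of ftr98 was 0.48 ± 0.24 in letter d and 0.33 ± 0.08 in letter c (edgeR adjusted p = 0.615 and 0.0686). On the T score the edgeR adjusted p was 0.588 for ftr56 and 0.709 for ftr98. On the B score DESeq2 called both, with adjusted p of 0.0246 for ftr56 and 0.0130 for ftr98, on a background of 13.5% of genes.

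Looser filters let in members that are counted in fewer libraries. With the filter by letter 0 of 50 members passed, against 10.8% of all genes. 7 had an unadjusted p under 0.05, against 25.7% of all genes tested. With no filter 4 of 90 passed (ftr80, btr02, ftr57 and ftr53), against 10.7%. With a mean count of at least 10, 2 of 52 members passed, against 13.4% of all genes. These were ftr57 (slope 0.61 ± 0.15 SE, edgeR adjusted p = 0.0189) and btr02 (1.16 ± 0.30, edgeR adjusted p = 0.0213). ftr57 had 0.0796, 0.365, 0.215, 2.33, 0 and 0.564 CPM in hMYC-9 to hMYC-14, and 0.303, 4.51, 1.71, 0.594, 0.474 and 0.163 CPM in the letter c libraries. Its highest libraries, hMYC-3, hMYC-12 and hMYC-4, are among those with the highest B scores. But hMYC-5, with a B score of 5.72 against 5.10 in hMYC-12, had only 0.594 CPM of ftr57. btr02 rests on hMYC-5 and falls below the count minimum without it. Without hMYC-5, ftr57 had a slope of 0.66 (edgeR adjusted p = 0.0194) while ftr72 (0.52, edgeR adjusted p = 0.0389) and ftr11 (0.80, edgeR adjusted p = 0.0427) passed as well, so 3 of 51 passed, against 9.81% of all genes.

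On a T score, the mean log2 CPM of 17 T cell genes such as zap70 and lat, 1 of 23 members passed, where 5.93% of all genes passed. This was btr29, with a slope of -0.45 ± 0.10 (SE, edgeR adjusted p = 0.0164) on the score with its sign turned, which means a higher level at a higher T score. The T score was 7.24 to 7.81 in letter d and 3.94 to 7.88 in letter c. hMYC-5 had both the lowest T score and the lowest btr29 level, and without it the slope was -0.44 ± 0.17 and did not pass (edgeR adjusted p = 0.250). Without any other single library btr29 still passed, with adjusted p up to 0.0498 (without hMYC-3).

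The transcription factor gene stat2 carries the interferon signal. It alone of 17 interferon and antiviral genes passed the B score test, with a slope of 0.38 ± 0.09 (SE, edgeR adjusted p = 0.0195). Of all genes 6.73% passed. DESeq2 called 3 of the 17, where it called 13.5% of all genes. stat2 had 43.6 to 399 CPM in letter d and 78.2 to 307 CPM in letter c, with the peak in hMYC-12. The call was lost without hMYC-4 (adjusted p = 0.0845), hMYC-9 (0.0535) or hMYC-11 (0.0545), and within letter d (0.222) or letter c (0.159) alone, all in edgeR. On the T score with its sign turned the slope of stat2 was 0.0007 (edgeR adjusted p = 0.999). On the B score minus the T score it was 0.24 (edgeR adjusted p = 0.103).

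Since finTRIM genes are known as virus-induced transcripts, each library was also given an interferon score, the mean log2 CPM of 34 interferon and antiviral genes, none of them a family member. This comparison was added after the data were seen. Some genes of the score had too few counts for the filter by letter. Among these, ifit9 had 132 counts in hMYC-12 and at most 24 in any other library, and mxb 72 and at most 23. The score was 1.77 (hMYC-9) to 4.07 (hMYC-12) in letter d and 2.18 (hMYC-5) to 3.89 (hMYC-4) in letter c. The list genes did not all follow it. stat2, DHX58, mxa, mxe and RSAD2 passed, but they are part of the score. Others did not pass, among them isg15 (slope 0.64 ± 0.65 SE, edgeR adjusted p = 0.814) and IRF7 (1.04 ± 0.48, edgeR adjusted p = 0.562). isg15 was highest in hMYC-13, at 196 CPM, where the score was 2.14. With the filter by letter 3 of 50 members rose with the score and 0 fell, where 0.966% of 13663 genes passed, 0.959% as rising. DESeq2 called 7 members, where it called 3.20% of all genes. 12 of 50 members (24.0%) had an unadjusted p under 0.05, 11 of them rising, against 1229 of 13663 genes, 811 of them rising. The median slope was 0.27 for the members, beside -0.11 for 34 other TRIM genes and -0.03 for all genes. One of these other TRIM genes, trim25, is also part of the score. All 3 called members were finTRIM genes, from 42 finTRIM and 8 bloodthirsty genes tested. The first B score test used the stricter filter instead. Under that filter 1 of 23 members, ftr91, passed on the interferon score, where 0.272% of 10653 genes passed.

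ftr91 had 2.79, 4.20, 1.07, 11.8, 1.77 and 8.65 CPM in hMYC-9 to hMYC-14, and 8.94, 6.76, 25.8, 1.61, 2.09 and 3.66 CPM in the letter c libraries. Its slope on the interferon score was 1.63 ± 0.27 (SE, edgeR adjusted p = 0.0114). ftr72 had 0.557, 1.83, 0.429, 5.27, 1.35 and 3.95 CPM in letter d and 5.45, 4.34, 17.7, 1.02, 1.33 and 2.12 CPM in letter c, with a slope of 1.90 ± 0.32 (edgeR adjusted p = 0.0125). Both were highest in hMYC-4 and, within letter d, in hMYC-12, and they lie in one run in the genome. Reads may be shared between neighbours, so their calls may not be separate signals. Without hMYC-4 neither passed (edgeR adjusted p = 0.117 for ftr91 and 0.165 for ftr72).

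ftr09 had 0.796, 5.48, 0.537, 19.0, 3.803 and 4.80 CPM in letter d and 4.24, 9.28, 7.48, 0.933, 3.51 and 1.55 CPM in letter c. It was highest in hMYC-12 and its slope was 1.65 ± 0.32 (SE, edgeR adjusted p = 0.0296). ftr07 (slope 2.29 ± 0.50, edgeR adjusted p = 0.0536) and ftr03 (1.68 ± 0.37, edgeR adjusted p = 0.0572) did not pass.

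**Figure D5:**
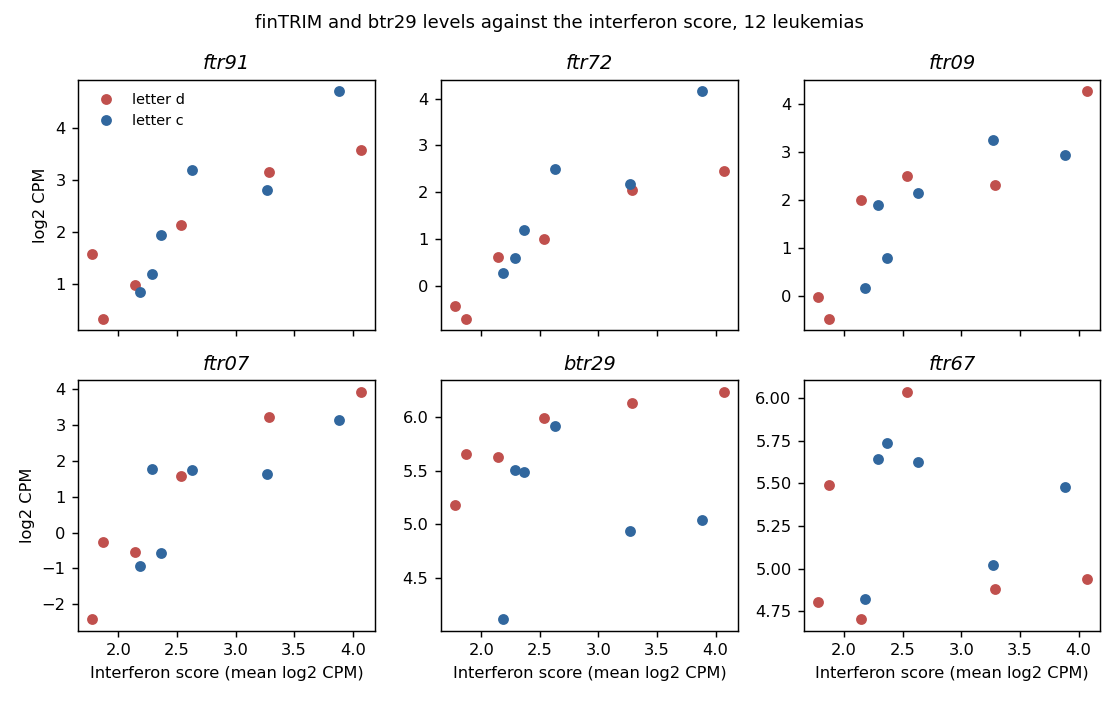
log2 CPM of ftr91, ftr72, ftr09, ftr07, btr29 and ftr67 against the interferon score of each leukemia, with letter d and letter c marked. ftr91, ftr72 and ftr09 are high in hMYC-12 and hMYC-4, the libraries with scores of 4.07 and 3.89, while btr29 and ftr67 did not pass the test.

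Some other measures were high in some of the libraries with high interferon scores, but not in all of them. hMYC-12 and hMYC-4, with the highest interferon scores, also had the highest mean log2 levels of the epithelial genes, 3.60 and 2.61. Their B scores were 5.10 and 6.20, but hMYC-5, with a B score of 5.72, had the lowest interferon score of letter c, 2.18. The mean log2 level of the red cell genes was highest in hMYC-14 (1.98), hMYC-12 (1.90) and hMYC-4 (0.90). hMYC-14 had an interferon score of 3.29, the highest myeloid level, 5.15, and an epithelial level of 0.91. By contrast, hMYC-3, with an interferon score of 3.27, had the lowest red cell and epithelial levels of letter c, 0.38 and 0.41. No tested gene of the B, epithelial, red cell or myeloid lists passed on the interferon score in edgeR, where 0.966% of all genes passed. The tested epithelial genes all had positive slopes. These were 1.33 ± 0.35 for epcam (SE, edgeR adjusted p = 0.117), 1.09 ± 0.38 for cdh1 (0.337), 1.08 ± 0.37 for krt4 (0.321) and 0.80 ± 0.50 for krt5 (0.693). The epithelial gene cldne was not tested. Among 17 T list genes 2 rose with the score in edgeR, cd28 (slope 2.03 ± 0.24 SE, adjusted p = 0.00104), a co-stimulatory receptor gene of T cells, and cd247l (2.43 ± 0.49, adjusted p = 0.0387). The parts of the epithelial, red cell, myeloid and T list genes in the result were not tested. With the B score as a covariate 0 of 50 members passed in edgeR, with 26.0% of members and 7.71% of all genes at an unadjusted p under 0.05 and 0.161% of all genes called. The slopes there were 1.93 ± 0.40 for ftr91, 1.88 ± 0.49 for ftr72 and 1.65 ± 0.45 for ftr09, beside 1.63, 1.90 and 1.65 without the covariate, each with a wider SE. Within letter d alone 0 of 29 members passed, where 0.322% of all genes passed, and 20.7% of members and 8.91% of all genes had an unadjusted p under 0.05. Within letter c alone 0 of 31 members passed, where 0.00% of all genes passed. There 12.9% of members and 3.22% of all genes had an unadjusted p under 0.05. Within the letters the slope of ftr91 was 1.34 in letter d and 1.99 in letter c. Leaving out single libraries gave 1 call without hMYC-4, where 0.441% of all genes passed. There were 2 calls without hMYC-9 (0.591% of all genes), hMYC-11 (0.639%) or hMYC-12 (0.369%). There were 5 without hMYC-5 (3.03%) or hMYC-10 (1.52%), so the share of all genes moved as well.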

How the data were processed

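The authors deposited raw counts per gene in 1 table, unnormalized, with Ensembl identifiers. Per the submitters' processing notes, bcl2fastq, STAR, Picard, featureCounts and the GRCz10 build were used; versions and settings are not given in the sources used here. Symbols were attached for 26269 of the 32105 identifiers (81.8%). Counts were tested with edgeR 4.0.16 in R 4.3.3 (quasi-likelihood F test, two-sided, TMM, filterByExpr, Benjamini-Hochberg over all genes, adjusted p of 0.05), with DESeq2 1.42.0 as an alternative. CPM uses TMM library sizes, and log2 CPM a prior count of 2. The script was tested on simulated data. Per-library totals are given with the results; intervals cover counting error only, and 3 counts is the limit that a count of 0 allows. Named genes are btr22, the 8 with the highest mean CPM, the 8 with the largest SD, on/off members and called genes; btr02, btr18, btr20, btr23, btr25, btr26, ftr70, ftr35, ftr57, ftr09, ftr07, ftr72, ftr03, ftr80, ftr53, ftr11, the T list genes cd28 and cd247l, and the members of the runs were chosen after their values were seen. The members, gene lists and tests were chosen with earlier results of these data known. Sequences and coordinates were not used here.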

Additional observations from a re-analysis of the deposited data

Results flagged for a closer look

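Within each letter, 26 members were examined for a library far from the others, which makes 52 groups of 6, and chance marks about 1 group in 20. 3 were marked. ftr26 was low in hMYC-13, at 1.488 log2 CPM (31 counts), with hMYC-11 the nearest at 3.115 (79 counts). ftr38 was low in hMYC-11, at 3.896 log2 CPM (137 counts), with hMYC-13 the nearest at 4.497 (265 counts). ftr79 was low in hMYC-8, at 0.9825 log2 CPM (22 counts), with hMYC-5 the nearest at 4.012 (188 counts).

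hMYC-1, the library not used, held 30267 counts of family members. hMYC-10 to hMYC-14 together held 26858. Its total was 51808498 counts, against 51478946 for those 5 libraries, and its count was the same as their sum for 20 members, above it for 70 and below it for 1.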

How the results depend on the processing

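Between the letters, 1 member was called; 0 were called with hMYC-1 added, the B score as a covariate or no filter, 0 at a minimum mean count of 10, where btr22 was not tested, and 0 to 1 with single libraries left out. btr22 kept its call in 7 of 19 alternatives (adjusted p 0.000245 to 0.199). For the B score, 0 members were called; DESeq2 and a mean count of at least 10 gave 2 each, no filter 4, the T score 1, a mean count of at least 10 without hMYC-5 3, and leaving out single libraries 0 to 1. For the interferon score, 3 of 50 were called, where 0.966% of all genes were. DESeq2 gave 7 (3.20% of all genes), no filter 5 of 90 (0.917%) and a filter without groups 1 of 23 (0.272%). The B score as a covariate gave 0 (0.161%) and either letter alone 0. Leaving out single libraries gave 1 to 5, with 0.369% to 3.03% of all genes called. The slope of ftr91 turned to -0.0436 on the T score with its sign turned; the cause was not tested. On/off members numbered 4, or 13 at 20 counts, 1 at 100 counts, 2 with 0 counts for off, 9 with hMYC-1, and 3 to 4 without single libraries. The median SD of 0.60 became 0.53 as a scaled median absolute deviation, 1.001 at a mean count of at least 10, 0.83 with no filter and 0.94 with the filter on the letter, and 0.58 to 0.63 without single libraries. The median of 45 detected members was 52 at 5 counts, 37.5 at 20 counts and 45 under every other setting run. Over all genes, the letters gave 15 higher and 32 lower calls with TMM, 20 and 26 with upper quartile scaling, and 18 and 21 with library totals, with a median log2 fold change of all genes of 0.10 under library totals and -0.02 with TMM. DESeq2 called 448 higher and 711 lower, no filter 2 and 5, and a mean count of at least 10 gave 5 and 15. The B score as a covariate gave 2 and 8, and single libraries left out 2 to 25 higher and 6 to 38 lower. With hMYC-1 added, 0 genes passed in edgeR, 2401 with an unadjusted p under 0.05. hMYC-1 has the letter c, but for all but 1 member its count was at or above the sum of hMYC-10 to hMYC-14, all of letter d. Adding it therefore cannot decide whether a difference between the letters holds. For the B score 717 genes were called, 1435 by DESeq2, 1473 with the filter by letter, 1989 at a mean count of at least 10 and 2799 with no filter; the letter as a covariate gave 233 positive and 119 negative, letter d alone 4 and 0, and single libraries left out 262 to 633 positive and 67 to 324 negative. For the interferon score 132 genes were called, 437 by DESeq2, and 51 to 405 positive ones with single libraries left out. No paired analysis was possible because the letters share no replicate numbers.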
